A study of Mus musculus with 8 samples.

Results

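The nuclear-encoded genes of the respiratory chain and ATP synthase were followed in cultured mouse keratinocytes (KCs), the main cells of the epidermis. They were chosen by name among the protein-coding genes, as all symbols that begin with Nduf and a subunit letter, Sdh, Uqcr, Cox4 to Cox8 or Atp5, and not by any measured value. The rule found 85 of the 41457 genes in the deposited tables, of which 35 belong to complex I, 4 to complex II, 8 to complex III, 20 to complex IV and 18 to ATP synthase. Ndufa4 and Ndufa4l2 were placed with complex IV, the tissue or paralogous isoforms were counted as separate genes, and Atp5o has 2 entries in the tables, written here as Atp5o_1 and Atp5o_2. Cox7a2l, a supercomplex factor, and Atp5s, which is no subunit of the enzyme, also match the rule.

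The respiratory chain sits in the inner mitochondrial membrane. Complex I and complex II take electrons from NADH and from succinate, complex III hands them to cytochrome c, and complex IV gives them to oxygen. Complexes I, III and IV pump protons, and ATP synthase uses the return flow of protons to make ATP. Most subunits are encoded in the nucleus and imported, whereas a small set of central subunits is encoded in mitochondrial DNA, so that both genomes contribute to every complex except complex II.

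All 8 samples were wildtype C57BL/6 KCs from the tail skin of adult mice, grown untreated in serum-free KC medium with 0.06 mM Ca++, a low calcium level. KCs of 4 samples were cultured for 1 week and those of the other 4 samples for 3 weeks, and the comparison of both times was the only one that the design allowed. Poly(A) RNA was sequenced in single reads of 59 bases. The study describes its samples as independent KC batches and names the same batches for both times. The number of mice behind a batch is not given in the sources used here. The preparation numbers of the deposited tables, which are no part of the labels, matched between the times for 3 of the 4 samples per group: 1 week replicates 1, 3 and 4 shared them with 3 weeks replicates 1, 2 and 4.

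The samples held 13896807 to 20026084 exon reads. Krt5 and Krt14 are the keratins of basal KCs. They reached 6039 to 6384 and 5837 to 7628 RPKM (exon reads per exon length and per mapped reads) at 1 week. At 3 weeks they had 1938 to 2581 and 4465 to 5930 RPKM. All 8 KC markers of the list were detected in every sample. Their log2 fold change, 3 weeks over 1 week, was positive for 4 (Cdh1, Krt15, Itgb4, Col17a1) and negative for 4 (Krt5, Krt14, Trp63, Itga6). The summed markers of fibroblasts stayed between 16.8 and 34.7 CPM (reads scaled by the size of the library), those of leukocytes at or below 5.38 CPM, with Cd207 at 0 reads in all samples, and those of endothelial cells at or below 4.47 CPM. Melanocyte markers summed to 8.15 to 56.3 CPM at 1 week and 2.63 to 15.6 CPM at 3 weeks. Skeletal muscle markers summed to 30.4 to 94.1 CPM at 1 week and 189 to 435 CPM at 3 weeks, of which Acta1, a muscle actin with 23.8% unique reads, carried the most. The part of these cell types in the results was not tested. Since RNA was taken from bulk cultures, fewer cells with a given RNA and less of that RNA per cell cannot be told apart.

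One sample stood apart before any gene was compared. In replicate 3 of the 3 weeks group, 13.3% of the exon reads came from genes in mitochondrial DNA, against 3.73% to 4.43% in the other 3-week samples and 2.19% to 3.66% at 1 week. Its TMM factor, by which edgeR scales a library for its composition, was 0.853, against 0.965 to 1.07 in the other samples. The nuclear-encoded genes took part in this: after TMM scaling, 74 of the 76 members with enough reads for a test had their highest 3-week value in replicate 3. The exceptions were Ndufs1 and Ndufa10, which were highest in replicate 4. The same sample was the highest of its group for 39.4% of all tested genes. In RPKM the count was 71 of 76 members, against 24.7% of all tested genes. The level of a member in replicate 3 was 1.62 times the mean of the other 3-week samples at the median, with a range from 0.879 (Ndufa10) to 2.00 (Atp5e, the epsilon subunit of ATP synthase), while the median of all tested genes was 1.04. The main results are therefore given with and without this sample. Of the KC markers, Col17a1, Itgb4, Cdh1 and Itga6 were lowest of the 3-week samples in replicate 3, at 16.6, 47.5, 134 and 44.9 RPKM. The other 3-week samples had 70.2 to 156, 106 to 245, 239 to 380 and 63.8 to 89.6 RPKM. Krt5, Krt14, Krt15 and Trp63 were not lowest in replicate 3. Whether the RNA, the library or the cells of replicate 3 differed was not tested.

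The members took 1.13%, 1.01%, 0.970% and 0.959% of the exon reads in the 1-week replicates 1 to 4 and 0.794%, 0.929%, 1.12% and 0.767% in the 3-week ones. Both ranges overlapped, and replicate 3 set the upper end at 3 weeks. Within the 1-week group the samples had the same order in the share of the members and in that of the mitochondrial DNA, with replicate 1 highest in both. Replicate 1 was also the highest 1-week sample for 64 of 76 members after TMM scaling, against 25.8% of all tested genes. In TPM, a share of the reads per length, outside mitochondrial DNA, the members made up 1.72% to 1.93% at 1 week and 1.62%, 1.79%, 2.21% and 1.61% at 3 weeks. The median member lay 0.17, -0.01, -0.10 and -0.07 from the 1-week mean on the log2 scale in the 1-week replicates 1 to 4, and at -0.19, 0.02, 0.53 and -0.28 in the 3-week replicates, where the median of all tested genes stayed within 0.01 of it in every sample. The spread of the members' median between the 3-week samples was thus wider than that between the 1-week samples, and it ran to both sides of the 1-week values.

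**Figure D1:**
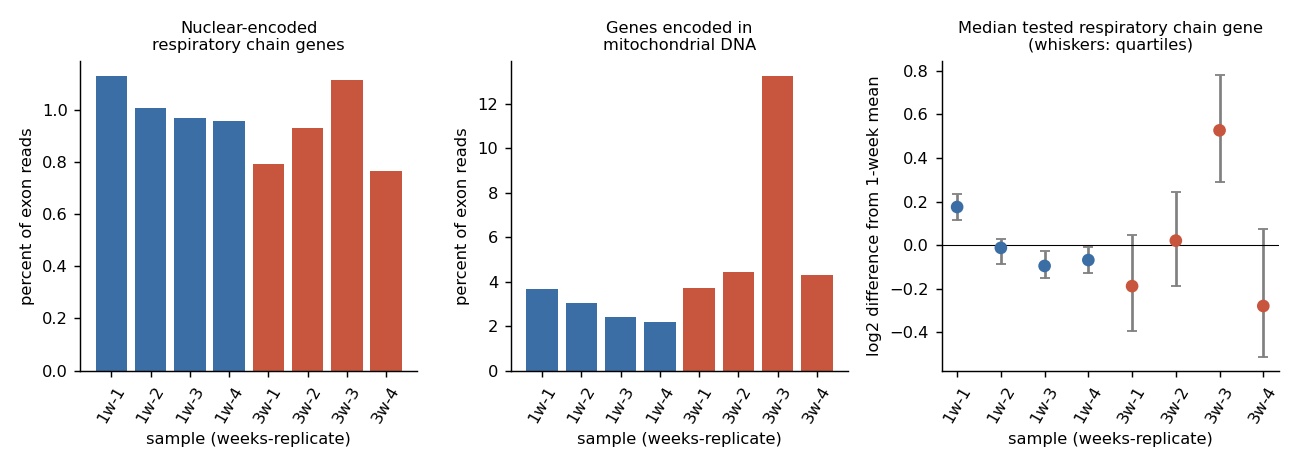
Percent of exon reads on the 85 nuclear-encoded respiratory chain genes (left) and on genes in mitochondrial DNA (middle) in each sample, and the median log2 difference of the 76 tested members from the 1-week mean (right, whiskers from the lower to the upper quartile of the members). Blue marks 1 week and red 3 weeks; replicate 3 at 3 weeks holds 13.3% mitochondrial reads and has the highest member median, 0.53.

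Of the 85 members, 76 passed the filter on low counts. After 3 weeks, 3 of the 76 were higher and 0 were lower at an adjusted p-value under 0.05 (edgeR's quasi-likelihood test with Benjamini-Hochberg adjustment over 12590 genes), which is 3.95% of the tested members. Of all tested genes, 32.8% passed the same test, 15.7% as higher and 17% as lower. At the level of the lowest tested member or above, 33.4% of 9848 genes passed. The log2 fold changes of the members were positive for 45 and negative for 31, with a median of 0.10, beside 0.03 for all tested genes, and ranged from -0.59 to 0.86. Only 3 members exceeded a 1.5-fold change in either direction. For 70 members (92.1%), the 95% interval of the fold change lay within 2-fold to both sides, compared with 52.1% of all tested genes and 61.5% of those at the level of the lowest tested member or above. The 6 exceptions were Uqcrh, Ndufa3, Cox6b1, Atp5l, Ndufa12 and Cox6c. In this dataset a larger part of the members than of all genes was therefore bounded to changes under 2-fold, and a p-value above the threshold does not show that a member was equal at both times.

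Without replicate 3 of the 3 weeks group, 2 members were higher and 16 were lower among 77 tested. Calls in either direction were 23.4% of the members tested there. Of all tested genes, 17.1% were higher and 20.8% were lower in this fit. The share of lower members was thus no larger than that of all tested genes, and the share of higher members was smaller. One of the 16, Ndufa4l2, was not tested with all samples and passed the filter on low counts only through the 1-week group, where it was high, so that 15 lower members remain among the 76. The log2 fold changes were positive for 25 and negative for 52 of the 77, and the median over the 76 was -0.10, beside -0.01 for all genes. The fold change of 75 members was lower without this sample than with it. The 15 genes that fell without the sample were Ndufs3, Ndufv1, Ndufv2, Ndufa5, Ndufa9, Ndufa12 and Ndufb5 of complex I, Sdhd of complex II, Uqcrc1, Uqcrc2 and Uqcrfs1 of complex III, Ndufa4 of complex IV, and Atp5a1, Atp5c1 and Atp5g2 of ATP synthase. The 2 that rose were Cox6b1 and Ndufv3. The sample that was left out was singled out by its mitochondrial reads after the values were seen.

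The KC preparation was also taken as a term of the fit. Over the 3 preparations present at both times, which leaves out 3 weeks replicate 3 and 1 week replicate 2, and with the preparation as a block, 0 members were higher and 5 were lower in edgeR, beside 10.4% and 14.2% of all tested genes. The 5 were Ndufa9, Ndufa12 and Ndufv2 of complex I, Atp5g2 of ATP synthase, and Ndufa4l2, for which the limit of the filter holds here too. The same samples without the block gave 0 higher and 14 lower, again with Ndufa4l2 among them, beside 13% and 17.5% of all tested genes. The median log2 fold change over the 76 members was -0.16 with the block and -0.15 without it, and none of Cox6b1, Ndufv3 and Cox6a1 passed in either fit.

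The scale also bore on the direction. TMM brought the median of all genes to 0.03, whereas on log2(RPKM + 0.1), which is scaled by all mapped reads including the mitochondrial ones, the median of all genes moved to -0.16 and that of the members to -0.09, and limma called 1 member higher and 14 lower, beside 10.4% and 24.5% of all genes. In deposited RPKM, the 1-week and 3-week values did not overlap for 2 members that were higher at 3 weeks (Cox6b1, Ndufv3) and for 10 that were lower (Ndufa9, Ndufa10, Ndufa12, Sdhd, Uqcrc1, Uqcrc2, Ndufa4, Atp5a1, Atp5b, Atp5g2). Of all tested genes, 10.8% were separated upwards and 26.2% downwards on this scale. After TMM scaling, 5 members were separated upwards (Ndufv3, Uqcrh, Cox6a1, Cox6b1, Atp5mpl) and 0 downwards, beside 16.4% and 18.5% of all tested genes. The balance of higher and lower members thus moved with the scaling and with the use of replicate 3.

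**Figure D2:**
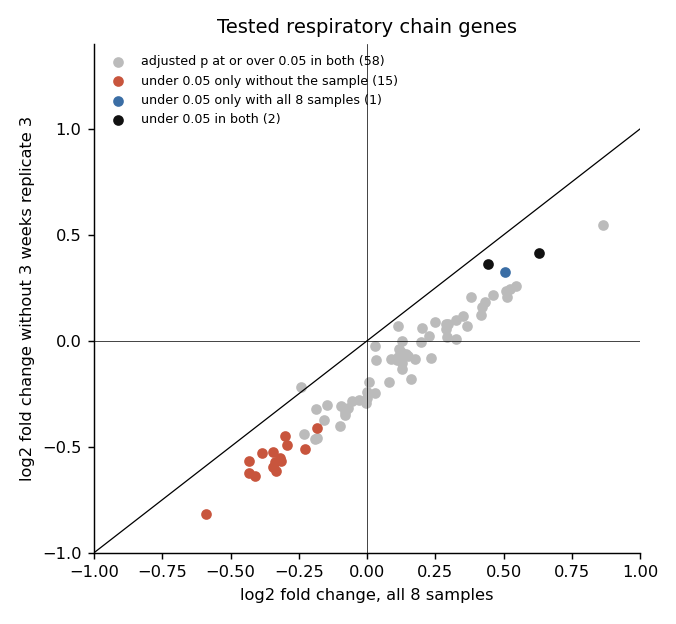
Log2 fold change of the 76 tested members, 3 weeks over 1 week, with all 8 samples (x axis) and without replicate 3 of the 3 weeks group (y axis); the diagonal marks equal values and colours mark the adjusted p of edgeR's quasi-likelihood test. All but 1 of the points lie below the diagonal, 15 genes pass the threshold without the sample alone, 1 with all samples alone and 2 in both.

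The 3 members that rose with all samples were small accessory subunits of complex IV and a subunit of the NADH-binding arm of complex I. Cox6b1 (chr7:30616861-30626151, minus strand, GRCm38), a subunit on the outer face of cytochrome c oxidase, had 225, 187, 230 and 200 RPKM at 1 week and 246, 284, 361 and 261 RPKM at 3 weeks. The 3-week samples were all above the 1-week samples. Its log2 fold change was 0.63 ± 0.18 (SE, n = 4 per group), with an adjusted p of 0.0264 in edgeR, and 0.41 without replicate 3 of the 3 weeks group (adjusted p = 0.0287). The call was lost without 1 week replicate 2 (adjusted p = 0.0753), without 1 week replicate 4 (0.0727) and without 3 weeks replicate 2 (0.0511), and over all 28 alternative fits the adjusted p ranged from 0.00109 to 0.155 with 22 of them under the threshold.

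Ndufv3 (chr17:31520115-31531326, plus strand), which lies beside the flavin-bearing subunit of complex I, had 14.0, 12.5, 14.0 and 15.3 RPKM at 1 week and 15.3, 17.4, 17.2 and 17.7 RPKM at 3 weeks. The groups met at 15.3 RPKM without overlap. Its log2 fold change was 0.44 ± 0.12 (SE), with an adjusted p of 0.0248 in edgeR, and 0.36 without replicate 3 of the 3 weeks group (adjusted p = 0.0463). It was one of the 5 members for which replicate 3 was not the highest 3-week sample in RPKM. The call was lost without 1 week replicate 1, 2 or 3 (adjusted p = 0.058, 0.0725 and 0.0613) and without 3 weeks replicate 2 (0.0618), and it held in 18 of 28 alternative fits.

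Cox6a1 (chr5:115345642-115348981, minus strand), the broadly expressed isoform of another small subunit of cytochrome c oxidase, had 298, 267, 264 and 271 RPKM at 1 week and 316, 364, 415 and 288 RPKM at 3 weeks. In RPKM, replicate 4 at 3 weeks was below replicate 1 at 1 week, whereas after TMM scaling the groups did not overlap. In log2 terms the fold change was 0.51 ± 0.17 (SE), with an adjusted p of 0.0448 in edgeR, and 0.32 without replicate 3 of the 3 weeks group (adjusted p = 0.0612). Leaving out any 1 sample other than 3 weeks replicate 4 took the adjusted p above the threshold, to between 0.0566 and 0.107. It passed in 12 of 28 alternative fits.

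The ends of the range, chosen after their values were seen, missed the threshold. Uqcrh, the hinge protein of complex III that holds cytochrome c1, had 43.4, 29.8, 62.8 and 58.0 RPKM at 1 week and 64.3, 76.7, 110 and 58.7 RPKM at 3 weeks, where both times overlapped in RPKM. Its log2 fold change of 0.86 ± 0.30 (SE) was the largest of the members and had an adjusted p of 0.0536 in edgeR, and DESeq2 gave 0.019. Without replicate 3 of the 3 weeks group it was 0.55, with an adjusted p of 0.122 in edgeR. Ndufa12, an accessory subunit of complex I with 47.6% unique reads, had 62.0, 50.3, 47.8 and 46.4 RPKM at 1 week and 25.4, 33.2, 38.8 and 23.9 RPKM at 3 weeks. All 3-week samples were below all 1-week samples in RPKM, but after TMM scaling replicate 3 overlapped with the 1-week group. The log2 fold change was -0.59 ± 0.21 (SE), with an adjusted p of 0.0609 in edgeR, and -0.82 without replicate 3 of the 3 weeks group (adjusted p = 0.00724).

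**Figure D3:**
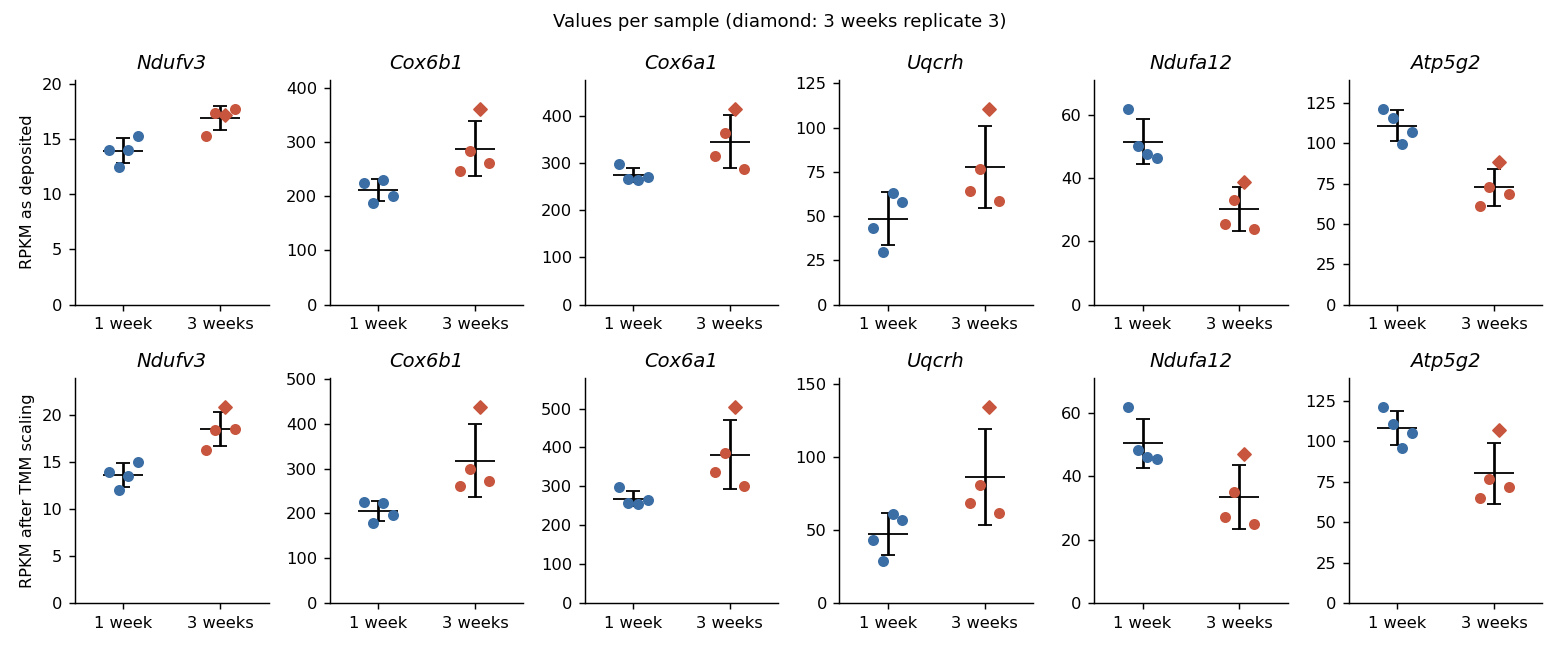
Level of 6 members in each sample, in RPKM as deposited (top) and after TMM scaling (bottom); blue marks 1 week, red 3 weeks, the diamond replicate 3 at 3 weeks, and the bars mean ± SD of 4 samples. Cox6b1 and Ndufv3 are separated on both scales, and the 3-week values of Ndufa12 and Atp5g2 are below all 1-week values in RPKM (at most 38.8 and 88.6 RPKM) but not after TMM scaling.

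The RefSeq promoters (GRCm38.p6, from 250 bases before to 50 bases after the start) of the 3 genes that passed the test are shown because respiratory chain genes are known for sites of nuclear respiratory factor 1 (NRF1) and of the ETS factor GABPA near their starts. Matches to GCGCA, any base and GCGC (NRF1) or CCGGAAG (ETS) on either strand are in capitals. The Cox6a1 promoter (chr5:115348909-115349208, minus strand) holds NRF1 matches that begin 162 and 117 bases before the start and an ETS match 16 bases before it, the Cox6b1 promoter (chr7:30626065-30626364, minus strand) holds an ETS match 28 bases before the start, and the Ndufv3 promoter (chr17:31519865-31520164, plus strand) holds none of these letters.
Cox6a1: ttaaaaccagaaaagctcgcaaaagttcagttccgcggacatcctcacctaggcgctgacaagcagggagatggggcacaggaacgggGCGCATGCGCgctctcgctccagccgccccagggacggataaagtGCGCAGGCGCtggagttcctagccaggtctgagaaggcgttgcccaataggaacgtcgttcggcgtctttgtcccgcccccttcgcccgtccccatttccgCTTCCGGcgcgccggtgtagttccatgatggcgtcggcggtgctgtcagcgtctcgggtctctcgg
Cox6b1: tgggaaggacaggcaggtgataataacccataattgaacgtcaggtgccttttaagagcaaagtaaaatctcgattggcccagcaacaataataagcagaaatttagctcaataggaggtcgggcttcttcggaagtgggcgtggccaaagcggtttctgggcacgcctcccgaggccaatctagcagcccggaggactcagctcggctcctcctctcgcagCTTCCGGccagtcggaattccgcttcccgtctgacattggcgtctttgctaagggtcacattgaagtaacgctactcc
Ndufv3: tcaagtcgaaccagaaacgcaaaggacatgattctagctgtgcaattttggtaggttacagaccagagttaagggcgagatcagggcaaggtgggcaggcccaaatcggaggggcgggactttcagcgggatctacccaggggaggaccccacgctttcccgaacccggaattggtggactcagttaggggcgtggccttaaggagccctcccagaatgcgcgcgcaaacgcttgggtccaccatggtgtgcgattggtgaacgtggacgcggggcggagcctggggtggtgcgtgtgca
The first Cox6a1 match reads the same on both strands and is 1 place, and no match to the 2 motifs overlaps another.

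A promoter was found by symbol for 65 of the 85 members. The NRF1 motif stood in 16 of them (24.6%), compared with 5.19% of the 27025 genes in the promoter table, and the ETS motif in 16 (24.6%), compared with 9.93%. Letters of the YY1 motif (AANATGGC) were also in 16 (24.6%, all genes 6.96%), and those of the estrogen-related receptor motif (TNAAGGTCA) in 3 (4.62%, all genes 1.43%). Both NRF1 and ETS letters were found for Cox6a1, Atp5h, Atp5k and Sdhd, and 37 members had neither. These shares describe the letters of the windows and not the binding of a factor.

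Complex I was represented by 35 tested members, of which Ndufv3 alone passed the test. The median log2 fold change was 0.03 with all samples and -0.22 without replicate 3 of the 3 weeks group. In the fit without that sample 1 member was higher and 7 were lower, beside 17.1% and 20.8% of all tested genes. The summed RPKM was 1629 ± 158 (SD, n = 4) at 1 week and 1492 ± 320 at 3 weeks. The core subunits carry the flavin and the iron-sulfur clusters that lead electrons from NADH to ubiquinone, and of the 6 described here 5 had negative values, though none passed edgeR's test with all samples. Ndufv1, which binds the flavin, had 59.5, 54.8, 46.1 and 49.1 RPKM at 1 week and 31.6, 39.0, 47.4 and 28.4 RPKM at 3 weeks. Only replicate 3 at 3 weeks reached into the 1-week range. The log2 fold change of Ndufv1 was -0.34 ± 0.21 (SE) with an adjusted p of 0.242 in edgeR, and without that sample -0.57 with an adjusted p of 0.0179. Ndufv2, which carries an iron-sulfur cluster, gave -0.33 and, without that sample, -0.61 (adjusted p = 0.0115 in edgeR).

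Ndufs3, a core subunit of the ubiquinone-binding arm, had 35.7, 31.3, 28.8 and 35 RPKM at 1 week and 20.6, 23.3, 29.0 and 21.5 RPKM at 3 weeks. Again replicate 3 alone reached the 1-week values. Its log2 fold change was -0.29 with all samples (adjusted p = 0.227) and -0.49 without replicate 3 of the 3 weeks group (adjusted p = 0.0164 in edgeR). The core subunits Ndufs7 and Ndufs8 had log2 fold changes of -0.15 and -0.23 with all samples and -0.30 and -0.44 without that sample, and none of these passed the test. Ndufs1, the largest iron-sulfur subunit, differed from them: it had 9.46, 8.37, 9.28 and 9.30 RPKM at 1 week and 8.13, 8.24, 8.27 and 10.5 RPKM at 3 weeks. Here replicate 4 and not replicate 3 was the highest 3-week sample, and the log2 fold change of 0.11 ± 0.12 (SE) did not pass (adjusted p = 0.514 in edgeR), nor did that of 0.07 without replicate 3. The accessory subunits ranged from -0.59 (Ndufa12) to 0.55 (Ndufa3) on the log2 scale, and these 2 were at -0.82 and 0.26 without replicate 3. Ndufc1, an accessory subunit, was at 0.03 on total reads and had the opposite sign on unique reads.

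Complex II, the succinate dehydrogenase of the tricarboxylic acid cycle, was encoded by 4 tested genes, none of which passed the test with all samples. Sdha, the flavoprotein, had 43.9, 41.0, 45.2 and 43.5 RPKM at 1 week and 37.1, 40.4, 38.1 and 42.5 RPKM at 3 weeks. Its 95% interval reached from -0.21 to 0.26 on the log2 scale around a log2 fold change of 0.03. Replicate 3 at 3 weeks was not high for Sdha in RPKM. Sdhb, the iron-sulfur subunit, and Sdhc, a membrane anchor, had log2 fold changes of 0.09 and 0.15 with all samples and of -0.09 and -0.07 without replicate 3 of the 3 weeks group, none of which passed the test. Sdhd, the other membrane anchor, had 78.9, 67.3, 77.8 and 78.6 RPKM at 1 week and 48.6, 60.7, 63.0 and 38.9 RPKM at 3 weeks. All 3-week values of Sdhd were below the 1-week values in RPKM. Sdhd had a log2 fold change of -0.34 ± 0.19 (SE) with an adjusted p of 0.195 in edgeR, and -0.52 without replicate 3 of the 3 weeks group (adjusted p = 0.0366).

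Complex III had 8 tested members, of which none passed the test with all samples. Without replicate 3 of the 3 weeks group, 3 were lower, beside 20.8% of all tested genes. These 3 were the main subunits of the list. Uqcrc2, a core protein of the matrix arm, had 94.9, 81.4, 72.7 and 66.6 RPKM at 1 week and 44.0, 50.5, 58.1 and 55.4 RPKM at 3 weeks. In RPKM all 3-week samples lay below the 1-week samples, but after TMM scaling replicate 3 overlapped with the 1-week group. The log2 fold change was -0.43 ± 0.17 (SE), with an adjusted p of 0.0763 on total reads and 0.0465 on unique reads in edgeR, and -0.57 without that sample (adjusted p = 0.022). Uqcrc1, the other core protein, gave -0.30 and, without the sample, -0.45 (adjusted p = 0.0486 in edgeR). Uqcrfs1, the Rieske iron-sulfur protein, gave -0.18 and -0.41 (adjusted p = 0.0333 in edgeR without the sample). The small subunits Uqcr10, Uqcr11, Uqcrb and Uqcrq lay between -0.00 and 0.29 with all samples and between -0.24 and 0.08 without that sample, and none passed. Cyc1, the cytochrome c1 of the same complex, is missed by the symbol rule: it fell from 70.6 ± 9.22 to 38.8 ± 8.73 RPKM (mean ± SD, n = 4). Its log2 fold change was -0.68 ± 0.21 (SE) at an adjusted p of 0.033 in edgeR, and without that sample -0.90 (adjusted p = 0.00481). With all samples Cyc1 was the only call among the 5 tested respiratory genes that the rule misses. Without replicate 3 of the 3 weeks group Ndufab1, the acyl carrier protein of complex I, was lower as well, at -0.44 (adjusted p = 0.0351 in edgeR). Only 15.1% of the Ndufab1 reads were unique, so that its value is uncertain.

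Complex IV had the highest median, 0.34 with all samples and 0.08 without replicate 3 of the 3 weeks group, and held Cox6a1 and Cox6b1. Its summed RPKM was 1610 ± 116 (SD, n = 4) at 1 week and 1777 ± 353 at 3 weeks. It was the only complex whose ratio of summed RPKM was above 1, at 1.10 with all samples and 1.0035 without that sample. Cox4i1, which binds the regulatory nucleotides of the enzyme, had 216, 182, 164 and 164 RPKM at 1 week and 180, 213, 287 and 142 RPKM at 3 weeks. The 3-week samples held both the highest and the lowest value. For Cox4i1 the log2 fold change was 0.37 ± 0.25 (SE), with an adjusted p of 0.29 in edgeR, and 0.07 without replicate 3 of the 3 weeks group. Cox5a and Cox5b, the other main nuclear subunits, were at -0.03 and -0.06 with all samples and at -0.28 each without that sample, and none of these values passed. Cox8a, with a mean of 329 ± 31.8 (SD) and then 363 ± 74.8 RPKM, was per length among the most abundant members, and its log2 fold change of 0.32, or 0.10 without that sample, did not pass. Ndufa4, once assigned to complex I, had 143, 132, 124 and 122 RPKM at 1 week and 76.8, 98.4, 118 and 74.8 RPKM at 3 weeks. All its 3-week values were lower in RPKM. The log2 fold change was -0.32 with all samples (adjusted p = 0.238) and -0.55 without replicate 3 of the 3 weeks group (adjusted p = 0.0135 in edgeR).

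The isoforms of complex IV that are known from muscle, testis or lung were close to the limit of detection. Cox4i2, Cox6a2, Cox6b2, Cox7a1 and Cox8b had at most 12 reads in any sample, and Cox7b2 and Cox8c had 0 reads in all samples, which allows up to 3 reads per sample (counting error only). The 8 untested complex IV genes also include Ndufa4l2, a paralogue of Ndufa4 known for its induction in hypoxia. It had 0.624, 0.133, 1.46 and 4.25 RPKM at 1 week and 0, 0, 0.0556 and 0.187 RPKM at 3 weeks. The level at 1 week varied widely between the samples, and 1 of the 1-week values lay below the highest 3-week value. The broadly expressed isoforms Cox4i1, Cox6a1, Cox6b1, Cox7a2, Cox7b, Cox8a and Ndufa4 had at least 62.2 RPKM in every sample.

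ATP synthase had 17 tested members and none passed the test with all samples. The median log2 fold change was 0.13, and -0.09 without replicate 3 of the 3 weeks group. Among the subunits of the catalytic F1 head, Atp5a1 (alpha) had 314, 275, 265 and 265 RPKM at 1 week and 171, 200, 217 and 174 RPKM at 3 weeks. Every 3-week value was below every 1-week value in RPKM. For Atp5a1 the log2 fold change was -0.38 ± 0.16 (SE) with an adjusted p of 0.0974 in edgeR and -0.53 without that sample (adjusted p = 0.0137). Atp5b (beta), which holds the catalytic sites and was per length the most abundant member at 1 week, had 392, 347, 327 and 300 RPKM and then 253, 291, 298 and 223 RPKM. The groups did not overlap in RPKM, but neither the log2 fold change of -0.19 nor that of -0.32 without the sample passed (adjusted p = 0.126 in edgeR). Atp5c1 (gamma, the central stalk) gave -0.34 and, without the sample, -0.60 (adjusted p = 0.0129 in edgeR), whereas Atp5d (delta) and Atp5e (epsilon) were at 0.20 and 0.16 with all samples and at 0.06 and -0.18 without the sample, and none of these values passed.

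**Figure D4:**
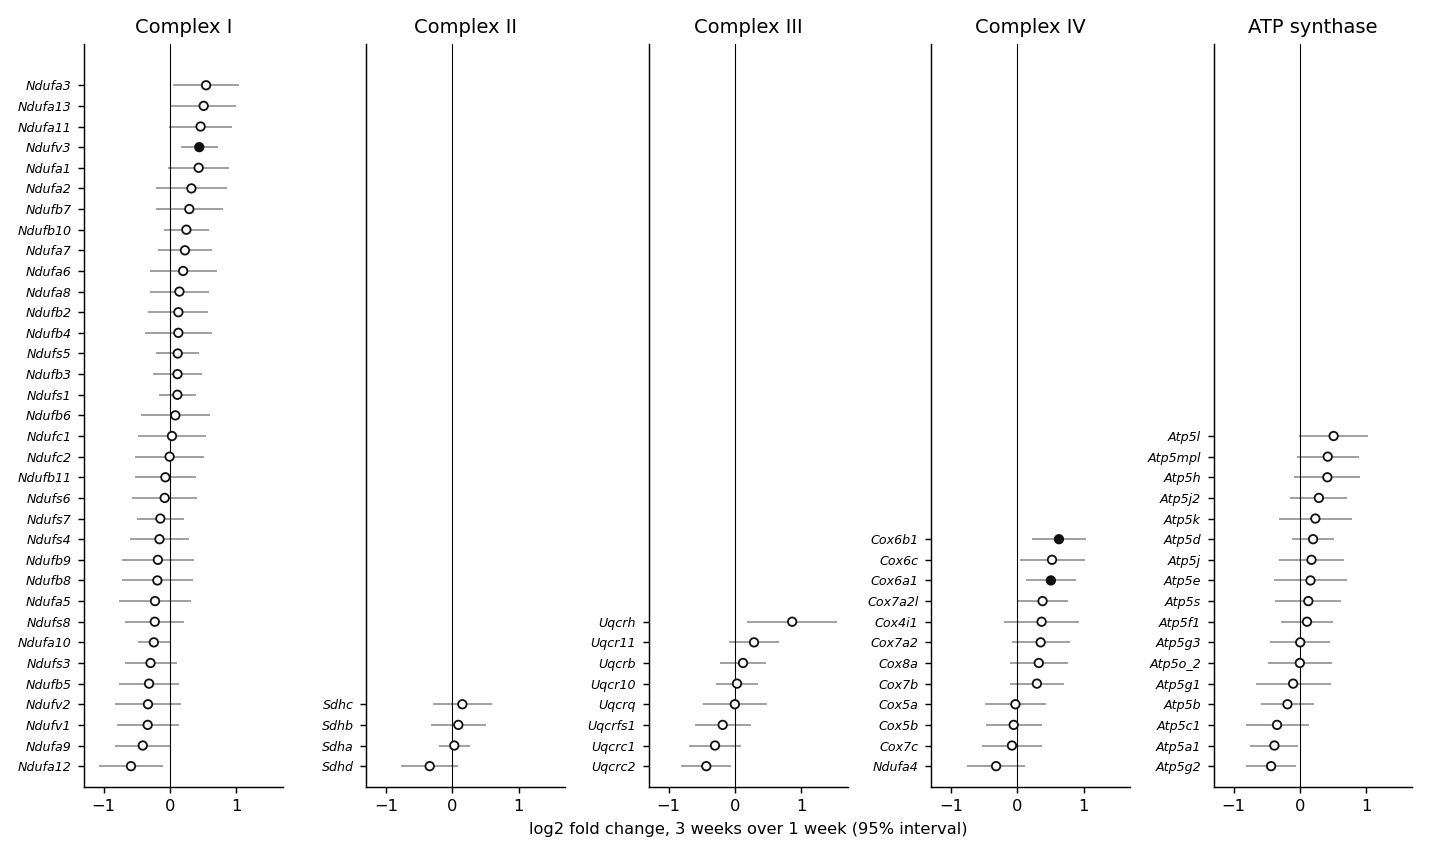
Log2 fold change, 3 weeks over 1 week, of the tested members by complex with all 8 samples, less 1 that is not reported here; bars are 95% intervals and filled points passed an adjusted p under 0.05 in edgeR's quasi-likelihood test. Ndufv3, Cox6a1 and Cox6b1 are the filled points, and Uqcrh at 0.86 and Ndufa12 at -0.59 are the ends.

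Atp5g1, Atp5g2 and Atp5g3 encode the same mature c-subunit of the proton-driven ring and differ in the import peptide, so that their ratio within a sample can be read without scaling between libraries. Atp5g2 made up 42.5%, 45.1%, 37.8% and 40.4% of the summed c-ring RPKM at 1 week and 32.3%, 32.6%, 33.9% and 41.1% at 3 weeks. Replicate 4 at 3 weeks lay within the 1-week range, and the other 3 were below it. The mean share was 41.4% ± 3.13 (SD, n = 4) and 35% ± 4.16, that of Atp5g3 47.9% ± 4.01 and 54.1% ± 3.43, and that of Atp5g1 10.6% ± 1.00 and 10.9% ± 1.28. The log2 ratio of Atp5g2 to Atp5g3 was lower by a difference of -0.42 at 3 weeks, which did not pass (exact permutation over 70 arrangements, two-sided, p = 0.0857, adjusted p = 0.214 over 3 pairs). The ratios of Atp5g1 to Atp5g3 and of Atp5g1 to Atp5g2 differed by -0.14 (exact permutation test, p = 0.314) and 0.29 (p = 0.143). The smallest p that 4 against 4 samples allow is 0.0286. The 7 other isoform pairs had fewer than 10 reads of 1 gene in some sample and were not tested. Per gene, Atp5g2 had a log2 fold change of -0.43 ± 0.17 (SE) with an adjusted p of 0.0792 on total reads and 0.0485 on unique reads in edgeR, and of -0.63 without replicate 3 of the 3 weeks group (adjusted p = 0.00535). Atp5g3 was at 0.01 and, without that sample, at -0.20.

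Coding length was a feature that the rule did not use and that went along with the fold change. It was taken as the bases of the longest coding sequence of a gene in the GENCODE annotation, and shorter forms were not considered. Coding length and log2 fold change had a Spearman rho of -0.53 over the 76 tested members, beside 0.03 over 12135 tested genes. Without replicate 3 of the 3 weeks group rho was -0.39, beside 0.15. These are correlations across genes, which share the libraries and are not independent. The 55 tested members with less than 600 coding bases had a median log2 fold change of 0.15, beside 0.05 for all tested genes of that size, and the 21 longer members one of -0.19, beside 0.02. Without that sample the medians were -0.07 and -0.32, beside -0.12 and 0.01 for all tested genes of these sizes. Without it 6 of the 55 shorter members (Ndufa4l2 aside) and 9 of the 21 longer ones were lower. The longer ones included Atp5a1, Uqcrc1, Uqcrc2, Ndufv1 and Ndufa9. Of all tested genes of any size 20.8% were lower, and the share per size was not determined. When GC content and length were corrected for in each sample, 16 members were higher and 1 was lower with all samples, and 15 were higher and 9 lower without it. Of all tested genes, 20.2% were higher and 17.4% lower with the correction and all samples, and 20.6% and 18.4% without replicate 3. The part of fragment length or RNA quality in the trend was not tested.

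**Figure D5:**
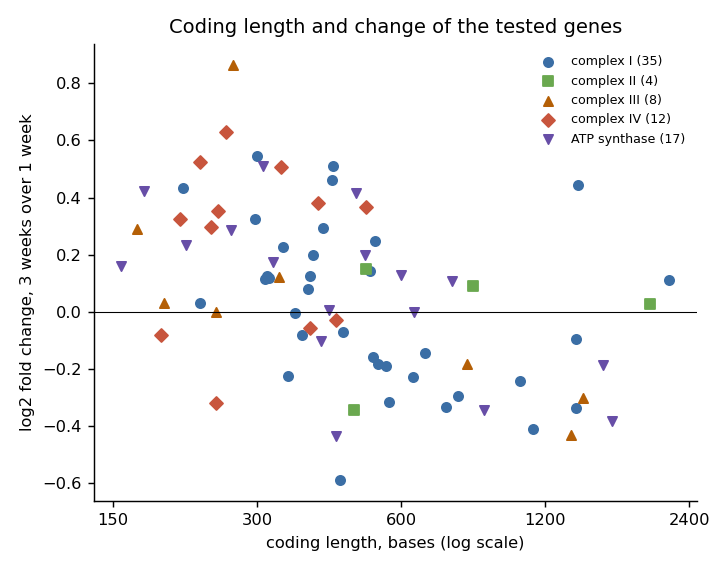
Log2 fold change, 3 weeks over 1 week with all 8 samples, of the 76 tested members. The x axis is the length of their longest coding sequence in bases (log axis), with 1 symbol and colour per complex. Members with under 600 coding bases have a median of 0.15 and the longer ones of -0.19, with Ndufv3 among the exceptions.

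Reads that fit several places in the genome, such as processed pseudogenes of these abundant genes, were counted in total exon reads. Of the tested members, 44 had at least 99% unique reads and 10 had less than 50%, the lowest being Ndufs5 (0.604%), Cox7c (5.94%) and Ndufb4 (6.85%), whose values are uncertain. On unique reads alone, 3 members were higher and 2 lower among 75 tested, beside 14.8% and 18.7% of all tested genes, the latter being Uqcrc2 and Atp5g2. The sign changed for Ndufc1, Sdha, Cox7c, Atp5g3 and Atp5o_2, all with log2 fold changes of 0.08 or less in size on either read column. A gene on the opposite strand overlaps 23 of the tested members, but none of Ndufv3, Cox6a1 and Cox6b1.

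The assembly factors, which build the complexes without being part of them, were read from a list per complex. For complex I, 1 of 16 tested factors was higher and 8 were lower at 3 weeks, beside 15.7% and 17% of all tested genes. Ndufaf6 fell most, from 7.25 ± 2.38 to 2.67 ± 0.411 RPKM (mean ± SD, n = 4), or by -1.27 ± 0.28 on the log2 scale (SE, adjusted p = 0.00849 in edgeR), and Tmem126b rose by 0.53 on that scale (adjusted p = 0.0218). For complex IV, 2 of 22 factors were higher and 1 was lower: Pet100 rose by 0.76 on the log2 scale (adjusted p = 0.0287 in edgeR), and Cox10, which makes the haem of the enzyme, fell, at -1.15 ± 0.18 (SE, adjusted p = 0.00165). Of 6 factors for complex III, Bcs1l, which inserts the Rieske protein, was lower, at -0.75 on the log2 scale (adjusted p = 0.0122 in edgeR), and of 4 for complex II, Sdhaf2 was higher, at 0.51 (adjusted p = 0.0112). None of 3 factors for ATP synthase passed. Without replicate 3 of the 3 weeks group, 1 factor was higher and 7 were lower for complex I, and 1 was higher and 5 were lower for complex IV. Of all tested genes, 17.1% were higher and 20.8% lower in that fit. There Pet100 no longer passed (adjusted p = 0.0595 in edgeR). The difference between factors and subunits was not tested.

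Among 12 regulators of respiratory chain transcription, 11 were tested and 4 were lower, beside 17% of all tested genes. Nrf1, which binds the motif shown above, had 2.69, 2.71, 2.98 and 3.18 RPKM at 1 week and 1.93, 1.78, 1.63 and 1.64 RPKM at 3 weeks. All 3-week values were below the 1-week values, replicate 3 included. The log2 fold change was -0.57 ± 0.12 (SE) with an adjusted p of 0.00805 in edgeR. The coactivator Pprc1 fell to a fitted fold of 0.499 (adjusted p = 0.0062 in edgeR), and Lrpprc, which stabilises mitochondrial mRNA, to 0.741 (adjusted p = 0.0161). The fourth, the coactivator Ppargc1b, had 0.329, 0.438, 0.227 and 0.384 RPKM at 1 week and 0.0538, 0.0152, 0 and 0.0341 RPKM at 3 weeks, on 0 to 36 reads per sample. It passed the filter on low counts only through the 1-week group, where it was high, so that its call adds nothing to the count of the other 3. Tfam, which packs and transcribes mitochondrial DNA, was at -0.47 (adjusted p = 0.0742 in edgeR) and at -0.65 without replicate 3 of the 3 weeks group (adjusted p = 0.0103). Yy1 was at 0.31 (adjusted p = 0.057 in edgeR), and Gabpa, Gabpb1, Esrra, Tfb2m and Polrmt ranged from -0.31 to 0.24 without passing. Ppargc1a had at most 11 reads in a sample and was not tested. Without replicate 3 of the 3 weeks group, 1 regulator (Yy1) was higher and 6 were lower, Tfam and Tfb2m being added, beside 17.1% and 20.8% of all tested genes.

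Of 14 tricarboxylic acid cycle enzymes, which feed NADH to the chain, 4 were lower and 0 higher with all samples, beside 17% and 15.7% of all tested genes, and 7 were lower without replicate 3 of the 3 weeks group, beside 20.8%. Idh2, the mitochondrial NADP-dependent isocitrate dehydrogenase, fell most, from 17.9 ± 2.19 to 5.35 ± 1.5 RPKM (mean ± SD, n = 4). On the log2 scale the fold change was -1.59 ± 0.20 (SE, adjusted p = 0.00067 in edgeR), and -1.59 without replicate 3 of the 3 weeks group. The 13 respiratory genes in mitochondrial DNA had positive values throughout, with a median log2 fold change of 1.56. Of them 6 rose, beside 15.7% of all tested genes. Without that sample the median was 0.76 and 7 rose, beside 17.1% of all tested genes. The largest change was that of mt-Nd6, with 207, 251, 202 and 206 RPKM at 1 week and 619, 593, 1607 and 825 RPKM at 3 weeks and an adjusted p of 0.00188 in edgeR. The core subunits of complex I encoded in the nucleus and in mitochondrial DNA thus had values of opposite sign in most cases, and that difference was not tested.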

How the data were processed

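The authors deposited a gene table for each of the 4 samples per time. They trimmed reads of poly(A) libraries and mapped them to GRCm38 in CLC Genomics Workbench (version 12.0), with default settings; the annotation release and the use of strand are not given in the sources used here. The deposited counts are whole total and unique exon reads per gene, not normalized. The deposited RPKM values equal total exon reads per exon length and mapped reads. TPM values were deposited beside them; both carry decimal commas.

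Total exon reads of all genes were tested with edgeR 4.0.16 (filterByExpr, TMM, glmQLFit, glmQLFTest, unpaired) in R 4.3.3, with Benjamini-Hochberg adjustment over 12590 genes and a threshold of 0.05, and members were read from that fit. Isoform ratios in RPKM were compared by exact permutation. Alternatives were DESeq2 1.42.0, limma 3.58.1 on log2(RPKM + 0.1) and log2(RPKM + 1), other read columns, filters and scalings, corrections for GC content and length, blocks, and samples left out; 5 of these were chosen once the data were known. GC content of the longest transcript and length of the longest coding sequence of a gene came from GENCODE on GRCm38. On simulated counts the test recovered 85 of 100 genes changed 4-fold and 43 of 100 changed 2-fold, with 5 false calls. The changed genes were drawn at random from all tested genes and not from the members.

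The members, gene lists and tests were chosen with earlier results of these data known. Members named by rule were the main subunits, isoform pairs, called members at the ends of each complex, members with a sample far from its group, and those whose call or sign differed on unique reads; others were named after their values were seen. Of genes outside the members, the largest called rise and fall per list and all regulators were named. The replicate numbers of the labels went with the same preparation number at both times for replicates 1 and 4, but not for replicates 2 and 3. Correlations of deviations from the group means between same-numbered samples were -0.23, -0.15, -0.15 and 0.25. They cannot decide the pairing, since replicate 1, with the same preparation number at both times, gave -0.23. The preparation numbers that the deposited tables carry were shared by both times for 3 preparations, where the correlations were -0.23, 0.20 and 0.25. Since the study names the same batches for both times, fits over these preparations with and without a block are given beside the unpaired counts. Columns of means or comparisons were not used. The values of 1 member are not reported here, although it is part of the counts and medians.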

Additional observations from a re-analysis of the deposited data

Results flagged for a closer look

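The tested members were searched in 152 groups of 4 samples for a sample whose gap to the nearest other exceeded Dixon's 95% limit, and 8 were found; chance gives about 1 in 20. Among the genes named by rule, Ndufs1 was low in 1 week replicate 2, with 8.37 RPKM against 9.28 to 9.46 RPKM in the other samples of its group, and high in 3 weeks replicate 4, with 10.5 RPKM against 8.13 to 8.27 RPKM. Sdhd was low in 1 week replicate 2, with 67.3 RPKM against 77.8 to 78.9 RPKM. Uqcrc1 and Uqcrfs1 were high in 1 week replicate 1, with 78.5 RPKM against 63.0 to 63.8 RPKM and 88.1 RPKM against 76.0 to 77.5 RPKM. The share of exon reads from mitochondrial DNA stood out in 3 weeks replicate 3, with 13.3% against 3.73% to 4.43%.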

How the results depend on the processing

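With all 8 samples, 3 members were higher and 0 lower, with a median log2 fold change of 0.10. Unique exon reads gave 3 higher and 2 lower members. DESeq2 gave 2 lower members, and among the higher ones it passed Uqcrh (adjusted p = 0.019) beside Cox6b1, Ndufv3 and Cox6a1. No filter on low counts gave 1 higher and 2 lower. limma on log2(RPKM + 0.1) and on log2(RPKM + 1) gave 1 higher and 14 lower each. A correction for exon length gave 17 higher and 2 lower, and one for GC content and length 16 and 1. Leaving out 1 sample at a time gave 0 to 6 higher and 0 to 16 lower members with medians from -0.11 to 0.16; the ends came from 1 week replicate 2 and 3 weeks replicate 2 (0 higher each), 3 weeks replicate 4 (6 higher, 2 lower) and 3 weeks replicate 3 (16 lower), while 1 week replicates 1, 3 and 4 left 1 higher each. Without 3 weeks replicate 3, alternatives chosen after seeing the data gave 14 lower on unique exon reads, 16 with DESeq2, 15 with upper-quartile normalization, and 15 higher and 9 lower with the GC and length correction. Over all 29 fits, 7.86% to 21.6% of all tested genes were higher and 10.5% to 24.5% lower. The cause of these differences was not tested.

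With the replicate number as a block, 1 member was higher and 0 were lower, and together with the GC and length correction 10 were higher and 1 was lower. The 3 preparations found at both times gave 0 higher and 5 lower as a block, with a median of -0.17 over 77 members, and 0 higher and 14 lower without the block. The log2 ratios of the c-ring pairs passed no test in any alternative, the block included, where 4 pairs allow no p under 0.125. Of 896 alternative values for 32 named members, 772 kept their side of the threshold, 92 newly passed it, 32 no longer did and 0 turned direction while called; 66 changed sign without passing. The tested members had at least 59 reads in every sample. Simulated 2-fold changes were recovered for 43 of 100 genes. These were drawn at random from all tested genes, so that this share does not give the recovery for the members.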
